A study of Mus musculus with 8 samples.

Results

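Genes of the forkhead transcription factors were followed in mouse small intestine harvested before birth, at E18.5. Members were all genes whose symbol in the array annotation is Fox, a letter from a to s and a number, with Foxm1 left out. This gave 43 genes, read by 58 of the 55681 distinct probes. For each gene the probe with the highest mean intensity over all 8 arrays was used, and 34 of the 43 genes were tested, among 25330 genes in all. A gene was tested when its probe was well above background, the scanner software's own call, on at least 4 of the 8 arrays.

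Of the 8 arrays, 4 came from controls and 4 from embryos labelled Rfx6 fl/fl Ngn3-cre, called mutants here. Control replicates 1, 3 and 4 were Rfx6 fl/+ and control replicate 2 was Rfx6 fl/fl. A floxed allele (fl) carries sites between which Cre recombinase cuts DNA out, and Ngn3-cre makes that enzyme where Ngn3, a gene of endocrine progenitors, is active. The deletion is thus aimed at the endocrine lineage, and the controls carry floxed alleles as well. The labels name Cre for the mutants only, so the effects of Cre and of the deletion cannot be told apart. RNA came from whole intestine, in which endocrine cells are a small share, and fewer cells of a type and less RNA per cell cannot be told apart in such samples. The study set out to find genes that Rfx6 regulates in endocrine cells of the gut, and the comparison here asks whether forkhead genes differ between the groups.

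Forkhead factors bind DNA through a winged-helix domain that the whole family shares. The FoxA proteins can open closed chromatin and mark the gut endoderm, and they take part in goblet and endocrine cell differentiation. FoxF and FoxL1 act in the mesenchyme under the epithelium, where they answer hedgehog signals. FoxO proteins leave the nucleus when insulin signalling is active, and FoxP proteins are repressors with roles in neurons, lung, heart and lymphocytes.

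No forkhead gene passed the test between mutants and controls. In limma with Benjamini-Hochberg adjustment, 0 of 34 genes had an adjusted p under 0.05, where 0.0592% of all genes did (0.00395% as higher and 0.0553% as lower in mutants), and the lowest adjusted p of a forkhead gene was 0.821. At an unadjusted p under 0.05 there were 3 forkhead genes (Foxl1, Foxp3 and Foxi2), or 8.82%, against 5.34% of all genes. The groups did not overlap for 2 genes, Foxl1 and Foxp1, both higher in mutants, or 5.88%, against 4.67% of all genes (3.04% higher and 1.63% lower). Differences, given as log2 mutant minus control, ran from -0.50 for Foxi2 to 0.46 for Foxp3.

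The precision of the arrays set how small a difference could have been seen. For the 25 genes well above background on all 8 arrays, the whole 95% interval of the difference lay within 2-fold in either direction. The median standard deviation (SD) within a group was 0.21 for these genes and 0.52 for the 9 tested genes well above background on 4 to 7 arrays.

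**Figure D1:**
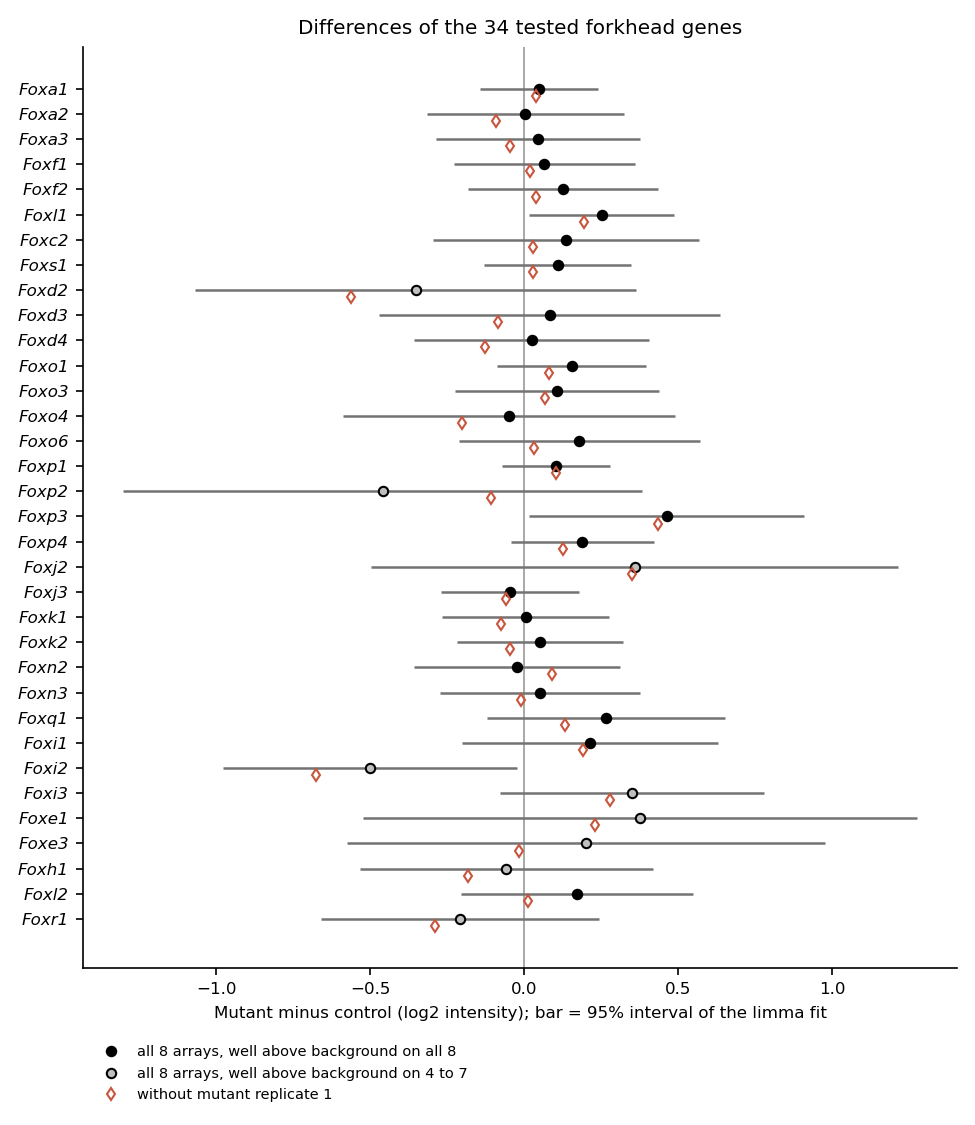
Log2 difference (mutant minus control, horizontal axis) of each tested forkhead gene, ordered by role, with the 95% interval of the limma fit over 4 arrays in each group. Filled circles are genes well above background on all 8 arrays, grey circles those above it on 4 to 7, and open diamonds the difference without mutant replicate 1; the intervals of Foxl1, Foxp3 and Foxi2 leave out 0.

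Foxa1, Foxa2 and Foxa3, the endodermal forkhead genes, were each well above background on all 8 arrays. Levels are log2 intensities after subtracting the array's own 75th percentile, and levels of different probes are not set against each other. Foxa1 (probe on chromosome 12, 58641764 to 58641823, mm9) stood at 1.65, 1.69, 1.63 and 1.66 in controls 1 to 4 and at 1.73, 1.58, 1.69 and 1.81 in mutants 1 to 4. The groups overlapped, since mutant replicate 2 was the lowest of the 8 arrays and mutant replicate 4 the highest. The difference was 0.05 (SE 0.08, limma adjusted p = 0.886), with a 95% interval of -0.14 to 0.24.

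Foxa2 (chromosome 2, 147868669 to 147868728) was at -1.35, -1.39, -1.13 and -1.35 in controls and at -1.01, -1.51, -1.53 and -1.15 in mutants. The mutant values lay on both sides of the controls, and the interval of the difference was -0.32 to 0.32. Foxa3 (chromosome 7, 19599053 to 19599112) was at -1.02, -0.87, -0.54 and -1.03 in controls and at -0.54, -1.01, -0.84 and -0.88 in mutants, with an interval of -0.29 to 0.38. These groups overlapped over nearly their whole range. Of the 3 genes, 3 were higher by their means with all arrays and 1 was without mutant replicate 1.

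Genes that work with FoxA factors or were described as their targets in intestine were read from a list of 17, of which 16 were tested. Of these 4 passed, all lower in mutants (Gcg, Pyy, Sst and Isl1), and 0 passed as higher. Isl1 was well above background on the 4 controls and on 0 mutants, so it met the filter through the controls alone. The first 3 encode gut hormones, and Isl1 encodes a transcription factor of endocrine cells. The list median was 0.011, against 0.031 for all genes, and without mutant replicate 1 it was -0.08, against 0.0018. Gcg, for example, stood at 1.41, 1.78, 1.83 and 1.45 in controls and at -1.99, -1.59, -1.76 and -1.87 in mutants (limma adjusted p = 1.21e-05). The 3 hormone genes were lower in every mutant, while the intervals of the 3 FoxA genes spanned 0. FoxA levels in endocrine cells alone were not measured, and a link to the hormone genes was not tested.

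Foxl1, a gene of the mesenchymal cells that lie against the epithelium and send signals to it, had non-overlapping groups. Its probe on chromosome 8 (chr8:123654402-123654461, mm9, plus strand) begins with these 30 bases, shown so that the measured stretch can be found.
Foxl1 probe, bases 1 to 30: ggtccacagtgatgtctcacaacaactaag
Foxl1 was at -0.33, -0.12, -0.09 and -0.22 in controls and at 0.24, -0.08, 0.10 and 0.00 in mutants. Every mutant array lay above every control, but the lowest mutant and the highest control were nearly equal. The difference was 0.25 (SE 0.10), or 1.19-fold, with a 95% interval of 0.02 to 0.49, an unadjusted p of 0.0383 in limma and an adjusted p of 0.821. Without mutant replicate 1 it was 0.19 (limma adjusted p = 0.753).

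The other tested genes of gut mesenchyme and vessels lay closer to 0. Foxf1, named Foxf1a in the array files and needed for gut mesenchyme, was at -2.64, -2.63, -2.68 and -2.29 in controls and at -2.35, -2.64, -2.33 and -2.66 in mutants (difference 0.07, SE 0.13, limma adjusted p = 0.901). Foxf2, its close relative, was at 0.92, 1.07, 0.75 and 0.98 in controls and at 1.32, 0.83, 0.88 and 1.19 in mutants (difference 0.13, SE 0.14). Both genes had overlapping groups. Foxc2, a gene of lymphatic vessels, was at -3.85, -3.87, -3.38 and -3.80 in controls and at -3.27, -3.33, -3.75 and -4.01 in mutants (0.14, SE 0.19, limma adjusted p = 0.856). Foxs1 differed by 0.11, and all 5 tested genes of this group were higher by their means with and without mutant replicate 1. Foxc1, a gene of vessels and mesenchyme, was at -6.28, -6.20, -5.80 and -5.77 in controls and at -5.60, -5.72, -5.48 and -5.94 in mutants. It was well above background on 1 array, a mutant, and was not tested.

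Markers of the tissues around these genes were set beside them. A list for FoxF and FoxL1 mesenchyme held hedgehog and BMP genes and also mesenchyme markers such as Acta2 and Col1a1. Of its 19 tested genes 0 passed in limma and 0 had an unadjusted p under 0.05. Higher by their means were 12, with a median of 0.063 (11 and 0.02 without mutant replicate 1). The summed intensity of that list, in units of the 75th percentile, was 183 to 240 in controls and 220 to 280 in mutants, highest in mutant replicate 1. The other 3 mutants, at 220 to 234, lay within the control range. All 7 smooth muscle and mesenchyme markers were well above background on all 8 arrays, 6 of them higher in mutants, with sums of 218 to 315 in controls and 286 to 385 in mutants. The highest sum was that of mutant replicate 1, and the other mutants, at 286 to 313, lay within the control range. Without it 5 of the 7 were higher. Acta2, Col1a1, Vim and Pdgfra were on both lists, so the sums are not separate readings. A linear sum follows its brightest probes, in the first list Acta2 and Col1a1 (control means 6.39 and 5.38 in log2). The part of these markers in the Foxl1 difference was not tested. In the list for endothelium 8 of 10 genes were higher (median 0.13), 0 passed in limma and 0 had an unadjusted p under 0.05. It was 7 of 10, with a median of 0.06, without mutant replicate 1.

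Several of these genes lie side by side in the genome. Probes of Foxf1, Foxc2 and Foxl1 fall within 43.8 kb on chromosome 8, and those of Foxq1, Foxf2 and Foxc1 within 250.3 kb on chromosome 13 (mm9). On chromosome 8 the 3 differences were 0.07, 0.14 and 0.25. Foxq1, a gene of epithelial cells, was at 0.42, 0.54, 0.55 and 0.16 in controls and at 1.08, 0.60, 0.74 and 0.31 in mutants. Its difference was 0.27 (SE 0.17, limma adjusted p = 0.821), and mutant replicate 4 lay below 3 of the 4 controls. Without mutant replicate 1 the difference was 0.13.

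Foxp1, a repressor with several isoforms, also had non-overlapping groups, by a small margin. These are the sequences of its brightest probe (chr6:98880084-98880143, mm9, minus strand) and of a further probe whose coordinates span 4338 bases for 60 bases of sequence (chr6:98885382-98889719, minus strand), shown because both separated the groups. Capitals mark the last 3 bases of the brightest probe, which read as a stop codon.
Foxp1 brightest probe: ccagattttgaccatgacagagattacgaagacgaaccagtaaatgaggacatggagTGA
Foxp1 further probe: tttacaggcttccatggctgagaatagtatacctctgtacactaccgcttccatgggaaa
With the brightest probe Foxp1 was at 3.13, 3.12, 3.11 and 3.08 in controls and at 3.21, 3.28, 3.17 and 3.18 in mutants. The SD was 0.023 in controls and 0.049 in mutants. The difference was 0.10 (SE 0.08, limma adjusted p = 0.821), or 1.07-fold, and it was 0.10 without mutant replicate 1.

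Of the 5 Foxp1 probes, 4 could be tested, and they did not all move alike. The further probe shown above was higher in all 4 mutants than in any control, with means of 1.17 ± 0.07 in controls and 1.38 ± 0.04 in mutants (SD, n = 4 each). Its difference of 0.22 (SE 0.08) had an unadjusted p of 0.0292 and an adjusted p of 0.828 in the limma fit over all tested probes. A probe on chromosome 6 at 98956679 to 98956738, named from a cDNA clone, differed by 0.12 (SE 0.12), and the one at 99112925 to 99112984 by -0.03 (SE 0.12). In these 2 probes the groups overlapped. Whether probes of different isoforms differ from one another was not tested.

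Foxp4 was at 3.01, 2.98, 3.17 and 3.08 in controls and at 3.43, 3.12, 3.30 and 3.15 in mutants, a difference of 0.19 (SE 0.10, limma adjusted p = 0.821). Its groups overlapped through control replicate 3. A probe shifted by 6 bases gave 0.25 (SE 0.10), with groups that did not overlap, and the remaining one gave 0.13. Foxp2 was lowest in mutant replicate 1, at -5.59, with the other mutants at -4.33, -4.12 and -4.08 and the controls at -3.64, -3.68, -4.64 and -4.32. Its difference of -0.46 (SE 0.37) moved to -0.11 without that array. A further Foxp2 probe gave -0.52 (SE 0.34), so both tested probes were lower by their means.

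Foxp3, the defining factor of regulatory T cells, gave the largest positive difference of the 34 tested genes under the main setting. With the deposited table (0.11) and with normexp background correction (0.18) it lay below Foxl1 (0.28 and 0.25) and Foxq1 (0.21 and 0.24). It was at -4.40, -4.53, -5.33 and -4.66 in controls and at -4.18, -4.23, -4.47 and -4.18 in mutants. Mutant replicate 3 lay between controls 1 and 2, so the groups overlapped, and control replicate 3 was the lowest. The difference was 0.46 (SE 0.20, unadjusted p = 0.0434 and adjusted p = 0.821 in limma), with a 95% interval of 0.02 to 0.91. Of 9 tested genes on a T cell list 3 were higher, 0 passed in limma, and the median was -0.098. Leaving out mutant replicate 1 made it 5 of 9, with a median of 0.02. The list's summed level was 12.6 to 14.3 in controls and 11.2 to 19.3 in mutants, highest in mutant replicate 1. The other mutants stood at 11.2 to 15.2. This linear sum mostly follows Cd4, the brightest probe of the list (control mean 3.52 in log2). Its part in the Foxp3 values was not tested. Il2ra, a receptor subunit carried by regulatory T cells and named after its values were seen, had means of -4.13 in controls and -4.52 in mutants (difference -0.39, SE 0.13, unadjusted p = 0.0155 and adjusted p = 0.821 in limma). The 3 higher genes of the list were Cd3e, Cd4 and Cd8a, by 0.15, 0.15 and 0.44. Ctla4 was not well above background on any array.

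**Figure D2:**
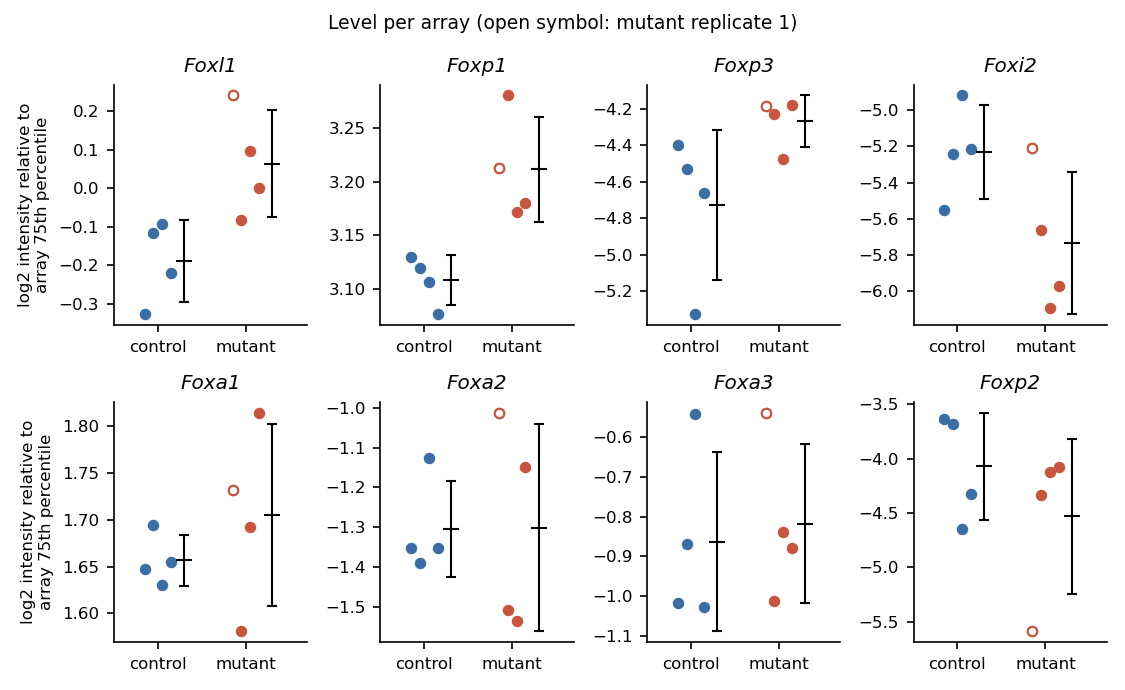
Level per array (log2 intensity relative to the array's 75th percentile, vertical axis, scaled for each gene) of 8 forkhead genes in 4 controls (blue) and 4 mutants (red), with the mean and SD beside the points. Foxl1 and Foxp1 have groups that do not overlap, and the open symbol, mutant replicate 1, is the lowest of the 8 arrays for Foxp2.

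Foxo1, Foxo3, Foxo4 and Foxo6, the genes of insulin-sensitive forkhead factors, were well above background on all 8 arrays. Foxo1 was at 1.59, 1.66, 1.71 and 1.69 in controls and at 2.04, 1.80, 1.83 and 1.60 in mutants (difference 0.15, SE 0.11, limma adjusted p = 0.821). Foxo3 was at -1.97, -1.80, -1.98 and -2.10 in controls and at -1.74, -1.66, -2.26 and -1.77 in mutants (difference 0.11, SE 0.15, limma adjusted p = 0.852). In Foxo1 mutant replicate 4 fell among the controls, and in Foxo3 mutant replicate 3 was the lowest of all. Foxo4 differed by -0.05 and Foxo6 by 0.18.

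All 26 genes of a FoxO pathway list were tested, and 0 passed in limma. An unadjusted p under 0.05 in limma was found for 5.34% of all genes, and groups that did not overlap for 4.67%. On the list 2 genes had both. One was Pdk4, which encodes a kinase that holds back glucose oxidation and is a known FoxO target. Pdk4 was at -0.27, -0.67, -0.64 and -0.47 in controls and at 0.69, 0.59, 0.82 and 0.19 in mutants. Every mutant stood above every control, by a difference of 1.09 (SE 0.15), and the limma adjusted p of 0.0838 missed the threshold. In 5 of 19 alternatives it passed, with an adjusted p of 0.0200 to 0.458 over all 19, and without mutant replicate 1 the difference was 1.05. The other was Bcl6, a repressor gene that FoxO factors can activate, which was at 0.22, -0.11, 0.44 and -0.07 in controls and at -0.52, -0.41, -0.60 and -0.44 in mutants. Bcl6 was lower by 0.62 (SE 0.14, limma adjusted p = 0.417) and passed in 0 of 19 alternatives, where its adjusted p was 0.230 to 0.867. The list median was 0.057, and 16 of 26 genes were higher. The median was -0.0055 and 12 of 26 were higher without mutant replicate 1.

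Foxd3, needed by the neural crest cells that form the enteric nervous system, was at -3.83, -3.53, -4.50 and -3.92 in controls and at -3.36, -4.26, -3.82 and -4.01 in mutants. Its groups overlapped (difference 0.08, SE 0.24, limma adjusted p = 0.934). Of 14 enteric crest genes tested 7 were higher, with a median of 0.039 (7 and 0.0016 without mutant replicate 1), and 0 passed in limma, with 0 at an unadjusted p under 0.05. The summed level of that list was 11.3 to 14.8 in controls and 12.5 to 13.4 in mutants. Of the other FoxD genes, Foxd4 differed by 0.02 and Foxd2, near background, by -0.35. Without mutant replicate 1 all 3 tested FoxD genes were lower by their means, by up to -0.56.

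Foxj1, the master regulator of motile cilia, was at -5.54, -6.41, -6.75 and -5.64 in controls and at -5.57, -6.40, -5.68 and -6.33 in mutants. It was well above background on 1 array, a control, and Foxb2, Foxc1 and Foxr2 were on 1 array each. Foxb1, Foxd1, Foxn1 and Foxn4 were not well above background on any array. These 8 genes have only a bound on their level and no test. In a ciliated cell list 8 genes were tested and 0 passed in limma, with 0 at an unadjusted p under 0.05 and a median of -0.03. Its lung markers Sftpc and Sftpb were above background on 1 and 2 arrays, all controls.

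Foxk1, a repressor of autophagy genes, was at 0.11, 0.23, 0.35 and 0.17 in controls and at 0.46, 0.03, 0.08 and 0.30 in mutants. The mutants lay on both sides of the controls (difference 0.005, SE 0.12, limma adjusted p = 0.993). Foxk2, Foxn2, Foxn3 and Foxj3 differed by -0.05 to 0.05, each with overlapping groups, and Foxj2, near background, by 0.36 (SE 0.38). A further list held 10 genes of chromatin proteins and transcription factors (Nfatc1, Nfatc2 and Runx1) that partner FoxP and FoxK proteins. Its median was 0.054, all 10 were higher by their means, 0 passed in limma and 0 had an unadjusted p under 0.05. Without mutant replicate 1, the array with the highest sum of this list, 7 of 10 were higher and the median was 0.0056. Foxi2, named after its values were seen, was at -5.55, -5.24, -4.92 and -5.22 in controls and at -5.21, -5.66, -6.09 and -5.97 in mutants. Its probe was well above background on 3 controls and 2 mutants. Mutant replicate 1 lay among the controls and the other 3 mutants below them, for a difference of -0.50 (SE 0.21, unadjusted p = 0.0418 and adjusted p = 0.821 in limma). Without that array it was -0.67 (limma adjusted p = 0.421). Foxi1 and Foxi3 differed the other way by their means, by 0.21 (SE 0.18) and 0.35 (SE 0.19). Foxe1, Foxe3, Foxh1 and Foxr1, each well above background on 5 to 7 arrays, differed by -0.21 to 0.38, and their groups overlapped.

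Foxl2, a gene of ovary and pituitary, had 2 probes, shown because of their base composition. They share 12 bases, in capitals.
Foxl2 brightest probe (chr9:98856894-98856950, mm9): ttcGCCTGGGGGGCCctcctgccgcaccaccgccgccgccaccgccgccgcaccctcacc
Foxl2 further probe (chr9:98856846-98856905, mm9): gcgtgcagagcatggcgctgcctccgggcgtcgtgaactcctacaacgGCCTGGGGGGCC
The brightest probe had a mean of 4.61 ± 0.16 in controls and 4.78 ± 0.32 in mutants, and the further one -4.60 ± 0.24 and -4.25 ± 0.43 (SD, n = 4 each). G and C made up 81.7% of the brightest probe's bases, and 0.0449% of all probes on the array reach that share. The further probe held 71.7%, and the median probe 43.3%. The coordinates of the brightest probe cover 57 of its 60 bases. Whether it reads Foxl2 RNA or other sequences was not tested. Both probes had overlapping groups (differences 0.17 and 0.35, limma adjusted p over probes 0.828 for both).

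In 9 genes with several tested probes, all of a gene's probes had the same sign of difference in 6. Not all of these are separate readings. The Foxo4 probes overlap (chrX:98454974-98455033 and chrX:98454966-98455025, mm9), as do the Foxp4 probes shifted against each other, and what the brightest Foxl2 probe reads was not tested. The sign differed in Foxa2, Foxo3 and Foxp1, and in each a probe was within 1 SE of 0 on the other side.

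**Figure D3:**
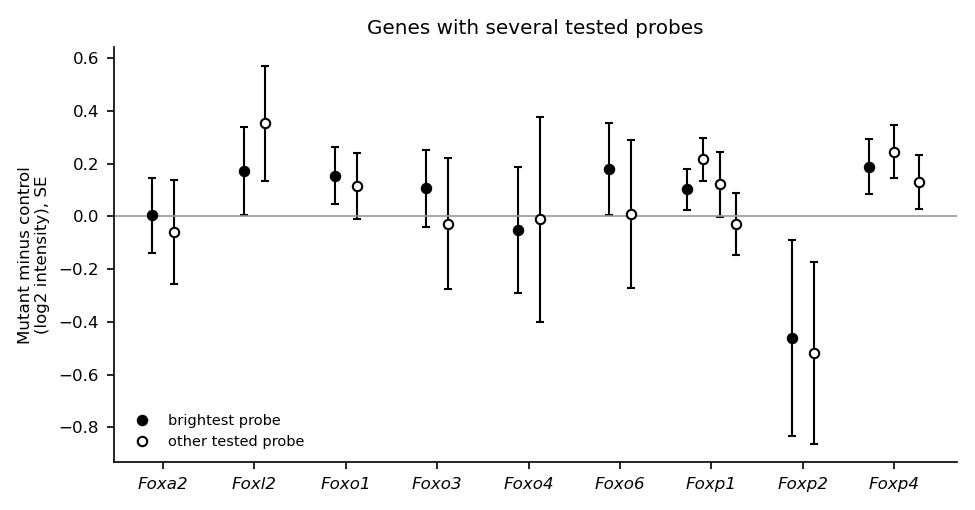
Log2 difference (mutant minus control, vertical axis) of each tested probe in the 9 forkhead genes with several tested probes, with its SE in the limma fit over all tested probes. Filled circles are the brightest probe of the gene, and both Foxp2 probes and all 3 Foxp4 probes lie on one side of 0.

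By group means, 26 of 34 forkhead genes were higher in mutants, or 76.5%, where 57.2% of all genes were. The median difference was 0.093, against 0.031 for all genes. Mutant replicate 1 was the highest of the 8 arrays for 17 of the 34 genes, where it was so for 45.7% of all genes. It was the lowest for 2 of the 34 genes and for 21.2% of all genes. Its forkhead genes lay 0.30 above their mean over the arrays at the median, and all genes 0.16 above. In the other 7 arrays the forkhead median was -0.07 to -0.02. Without mutant replicate 1, 19 forkhead genes were higher and 15 lower, the median was 0.024 against 0.0018 for all genes, and 9 genes changed sign. Foxl1 and Foxp1 then still had groups that did not overlap, and Foxi2 joined them as lower, where 8.00% of all genes had such groups.

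**Figure D4:**
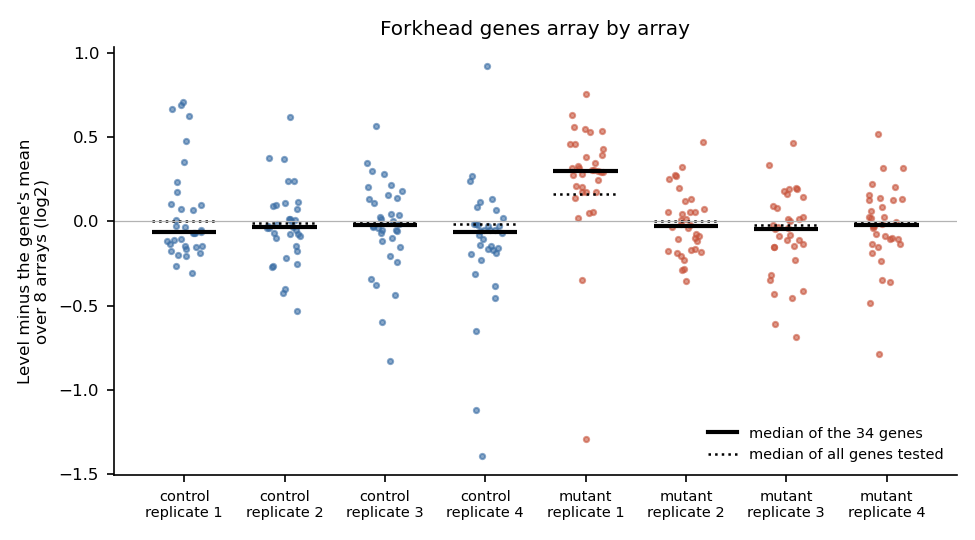
Deviation of each tested forkhead gene from its own mean over the 8 arrays (log2, vertical axis), by array, with controls in blue and mutants in red. The solid line is the median of the 34 genes and the dotted line that of all genes tested; in mutant replicate 1 they stand at 0.30 and 0.16, and in the other arrays within 0.07 of 0.

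That array also stood apart in the series as a whole. Its mean correlation with the other arrays across genes was 0.978, against 0.990 to 0.991 for the others. It was the array on which Rfx6, the targeted gene, was lowest, at -5.52, while the other mutants stood at -3.37 to -3.02 and the controls at -3.48 to -2.93. The Rfx6 probe therefore does not check the labels of the other mutants, and whether it lies in the deleted part is not given in the labels. All 8 epithelial markers, all 7 of smooth muscle and mesenchyme and all 6 of enteric neurons and glia were well above background on all 8 arrays. Of the 8 endocrine markers 5 passed as lower in mutants (Gip, Gcg, Cck, Sst and Ghrl). Gip was well above background on 4 controls and 1 mutant, so that it entered the test through the controls. The remaining endocrine markers did not pass: Chga differed by -0.27, Chgb by 0.03 and Neurod1 by 0.49 (0.11 without mutant replicate 1). Pancreas markers summed to 0.743 to 1.96 in controls and 2.49 to 13.0 in mutants, with Ptf1a not well above background on any array. Liver markers summed to 109 to 143 in controls and 73.9 to 105 in mutants, nearly all of it Afp. Stomach markers summed to 0.0974 to 0.112 in controls and 0.0868 to 0.998 in mutants. Of these, Tff1 was well above background on 1 array, a mutant, and Gkn2 on no array. The tested Gkn1 and Muc5ac differed by -0.13 and 0.13, with overlapping groups. The part of these tissues in the forkhead values was not tested.

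Promoters of the forkhead genes were richer in G and C at the median than promoters at large, a property that the choice of members did not use. RefSeq promoters (GRCm38.p6, 250 bases before to 50 after the start) were found for 28 of the 43 genes, 33 promoters in all. Their median GC content was 62.7%, against 52.7% for all 32851 promoters, and they held a median of 22 CG pairs against 7. The share of them with more CG pairs than the median of all promoters was 81.8%. Those of Foxi1, Foxi2 and Foxr2, with 6, 5 and 3 CG pairs, were among the ones below it. The forkhead motif GTAAACA, on either strand, occurred in 1 of the 33 promoters, that of Foxa1, and in 3.65% of all promoters. The Foxa1 promoter is shown as the endodermal gene whose promoter holds the letters that the family itself binds. Capitals mark the match, which begins 141 bases before the start.
Foxa1 promoter (chr12:57546112-57546361, GRCm38.p6, minus strand): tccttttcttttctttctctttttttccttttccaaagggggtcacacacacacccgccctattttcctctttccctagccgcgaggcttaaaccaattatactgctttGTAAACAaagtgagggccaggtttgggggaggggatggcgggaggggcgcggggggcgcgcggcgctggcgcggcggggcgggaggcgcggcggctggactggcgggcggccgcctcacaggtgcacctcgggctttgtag
A loose form of the X-box bound by Rfx factors, read as GTNNCC, then NNN, then GNAAC without a gap and on either strand, occurred in 2 of the 33 promoters, both of Foxp1, and in 2.17% of all promoters. The promoter with the higher CG content is shown, with the match in capitals.
Foxp1 promoter (chr6:99028299-99028548, GRCm38.p6, minus strand): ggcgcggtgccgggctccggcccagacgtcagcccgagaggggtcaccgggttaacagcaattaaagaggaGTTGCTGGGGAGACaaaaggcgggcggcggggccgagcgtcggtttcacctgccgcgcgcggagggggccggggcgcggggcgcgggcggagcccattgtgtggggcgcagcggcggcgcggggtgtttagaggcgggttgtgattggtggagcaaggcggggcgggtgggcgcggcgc
The match begins 179 bases before the start. These matches describe letters in a window, and binding was not measured.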

How the data were processed

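TRI-reagent was used to extract total RNA, of which 100 ng was amplified and labelled with 1 dye, per the labels' protocols. Per the file headers, the authors scanned 1 slide of 8 arrays with Feature Extraction 10.10.1.1 (probe coordinates are mm9) and deposited linear spot intensity values, background-corrected and detrended within the array, that were not normalised between arrays. The deposited value table, also linear intensity with unstated processing, has the same quartiles in each column and served as an alternative.

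Values are log2 processed intensity minus log2 of the array's 75th percentile (788 to 1027) over 59305 non-control spots. Outlier spots were left out (117 to 157 per array) and spots of a probe averaged. Probes well above background on at least 4 arrays were kept, then 1 probe per gene, the brightest. Names came from RefSeq accessions for 26582 probes, from synonyms for 492 and from the files for 28607; forkhead probes were taken by file name. Between 59.7% and 69.9% of probes were well above background, and 4 arrays per group limit the precision. The test was the two-sided moderated one of limma 3.58.1 (R 4.3.3), adjusted by Benjamini-Hochberg over 25330 genes. The fit was tested on simulated data. SE and 95% intervals are limma's.

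The members and the comparison lists were chosen with earlier results of these data known. Full values are given for forkhead genes fixed by their role in gut and for those whose groups did not overlap; Foxp4, Foxi2 and Foxl2 were added after their values were seen, as were the list values without mutant replicate 1. Nothing in the labels says that litters were separate, so p-values measure the spread between these samples. The descriptions of mutant replicates 2 to 4 name other Rfx genes; their titles were used. Same-numbered samples correlated at -0.09 to 0.09 in their deviations, so numbers do not pair them. One item is not reported here.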

Additional observations from a re-analysis of the deposited data

Results flagged for a closer look

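Each tested forkhead gene gave 2 groups of 4 arrays, 68 groups in all, and in 7 of them a single array stood far from the remaining 3 (Dixon's criterion at 95%). Chance flags about 1 in 20 groups, or 3.4 here. Mutant replicate 1 was the distant array 3 times. Its value was high for Foxl2 (5.26, other mutants 4.58 to 4.67) and Foxo6 (0.54, others -0.09 to 0.00) and low for Foxp2 (-5.59, others -4.33 to -4.08). Control replicate 3 was high for Foxa2 (-1.13, other controls -1.39 to -1.35) and Foxc2 (-3.38, others -3.87 to -3.80). Control replicate 4 was high for Foxf1 (-2.29, others -2.68 to -2.63). Mutant replicate 4 was low for Foxj2 (-5.25, others -5.19 to -5.18), a gap of less than 0.1.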

How the results depend on the processing

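In 20 alternatives 0 of the 34 tested forkhead genes passed in limma, and the lowest adjusted p of any was 0.239 (Foxi2, with array weights). The setting that asked for all 8 arrays well above background held 25 of them. The 9 untested genes were not read in any setting. The median forkhead difference stayed positive, at 0.023 to 0.125, and so did the median of all genes, at 0.0018 to 0.051. The count over all genes, 15, became 27 under normexp, 40 with array weights, 23 with a trended and robust prior and 7 with the replicate block, in which the numbers were not paired by the design; 10 to 22 genes passed when an array was left out. Differences near 0 changed sign. With array weights Foxa1 was at -0.000758, Foxa2 at -0.11, Foxa3 at -0.030, Foxd3 at -0.17, Foxf1 at -0.027, Foxf2 at -0.034 and Foxk1 at -0.10. Foxa1 (-0.0024) and Foxk1 (-0.037) also did so with the deposited table, Foxk1 (-0.00078) with quantile normalisation, and Foxa2 (-0.060) and Foxo3 (-0.027) with their second brightest probe. With each array left out in turn Foxa2 ran from -0.092 to 0.082, Foxa3 from -0.047 to 0.15, Foxd3 from -0.10 to 0.22 and Foxk1 from -0.077 to 0.068. Foxl1 (0.18 to 0.30), Foxp1 (0.07 to 0.22), Foxp3 (0.11 to 0.57), Foxp4 (0.13 to 0.25), Foxo1 (0.08 to 0.23), Foxq1 (0.13 to 0.39), Foxc2 (0.03 to 0.27), Foxl2 (0.01 to 0.35), Foxp2 (-0.65 to -0.11) and Foxi2 (-0.67 to -0.06) kept their sign in the alternatives that gave a value. Changing only the filter, the variance prior or a block, or fitting all tested probes, left each of these differences as it was. No sign could change in those settings. The cause of the changes elsewhere was not tested. The 5 widest intervals belonged to genes well above background on 5 to 7 arrays (Foxe1, Foxj2, Foxp2, Foxe3 and Foxd2).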
